A study of Mus musculus with 2 samples.

Results

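The Hox genes of the HoxA, HoxB, HoxC and HoxD clusters were compared between wild-type (WT) and Smad3−/− mouse embryonic stem cells (ESCs). Members were all probe sets whose single gene symbol in the platform annotation was Hoxa, Hoxb, Hoxc or Hoxd followed by a number, which gave 197 probe sets for 33 genes, out of 209279 probe sets for 16358 genes in all. These were 9 genes of HoxA, 10 of HoxB, 8 of HoxC and 6 of HoxD. Hoxa13, Hoxc11, Hoxd4, Hoxd8 and Hoxd12 had no probe set of their own and were not analysed here.

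One array of the Affymetrix mouse exon type was hybridized for each genotype, with total RNA of WT cells and of cells labelled as Smad3 knockout, both of C57BL/6 background. Both were grown in ESC medium with LIF and 2i, which are CHIR99021, an inhibitor of Gsk3, and PD0325901, an inhibitor of Mek. Per the methods ESCs were kept on feeder cells, and feeder-free lines were passaged off them and grown on gelatin with LIF and 2i, the additives the labels give for both arrays. The labels do not mention feeders, and neither source states how many clones each genotype represents. On such an array each probe set reads a short stretch of a transcript, and the deposited value is its signal on a log2 scale. Neither genotype was replicated, so no test was possible, every comparison describes these 2 arrays alone, and their number limits the precision. Differences are log2 values of the Smad3−/− array minus the WT array.

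Hox genes encode homeodomain transcription factors that give cells along the body axis their regional identity. They lie in 4 clusters, numbered by paralog from the 3′ end, whose low-numbered genes act in the hindbrain and neck, to the 5′ end, whose high-numbered genes act in the lumbar region, the tail, the limbs and the genital tract. In ESCs the clusters are kept silent by Polycomb complexes, which methylate histone H3 at lysine 27 and compact the chromatin, and they are opened from the 3′ end when cells differentiate, for example under retinoic acid. Smad3 is a nuclear effector of TGF-β, Activin and Nodal signaling, which patterns the same axis in the embryo.

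All 33 Hox genes were dim in both arrays. Each gene was given the median log2 signal of its probe sets as its gene value. It was called dim when its higher value of the 2 arrays lay under 8.64, the limit, which is the median of these higher values among all genes. In the WT array the Hox genes ran from 5.11 (Hoxb2) to 8.53 (Hoxd11), with a median of 7.005, and in the Smad3−/− array from 4.90 (Hoxb2) to 8.31 (Hoxc13), with a median of 6.91. The median over all genes was 8.49 in WT and 8.58 in Smad3−/− ESCs, and 28.8% and 27.8% of all genes had values under the Hox median. Signal depends on the probes as well as on the RNA, so these values place the family below the limit and give no order of RNA amounts between its members. In bulk RNA, a transcript at low level in all cells cannot be told apart from one present in few of them.

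**Figure D1:**
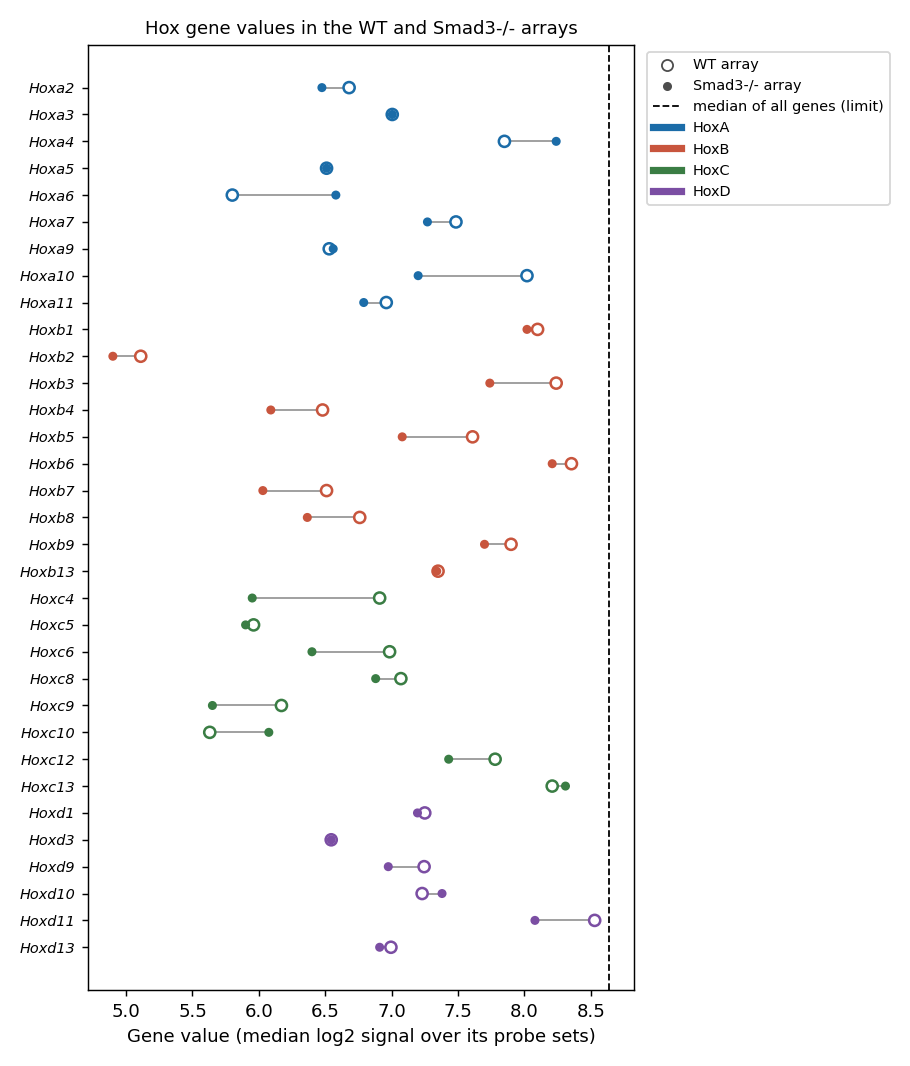
Gene values of the 33 Hox genes, as the median log2 signal over the probe sets of each gene, in the WT array (open circles) and in the Smad3−/− array (filled circles), coloured by cluster. The dashed line marks the limit of 8.64, and all values lie to its left.

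No Hox gene differed by more than 1.5-fold (0.585 on the log2 scale), the threshold named in the methods, in either direction. Over all genes 1.14% were higher and 0.685% lower by more than 1.5-fold, and over the 8173 dim genes 1.39% and 1.17%, with 1.82% and 2.57% in either direction. The count of 0 of 33 is near these shares and is no result about the family. The gene difference was taken as the median of the probe set differences. It was below 0 in 22 Hox genes, at 0 in 3 and above 0 in 8, with a median of -0.11, the lowest value -0.54 (Hoxa10) and the highest 0.28 (Hoxc4). The median over all genes was 0.035, with 40.6% of genes below 0, and over dim genes -0.03, with 56.3% below 0. The Hox genes were thus lower by a small amount more often than all genes, and nearer to the other dim genes than to the bright ones. The SD of the difference over the Hox genes was 0.19, against 0.24 over all dim genes.

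**Figure D2:**
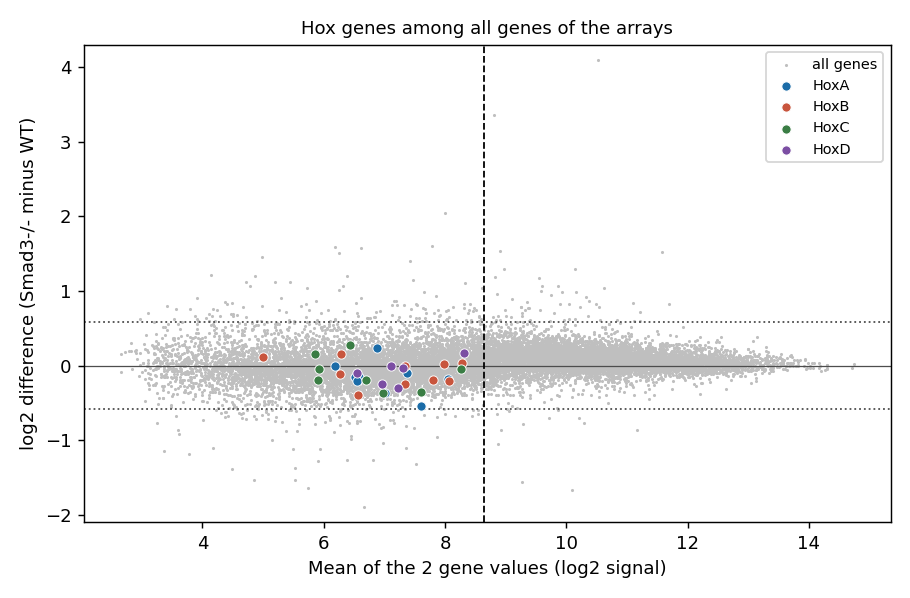
Log2 difference (Smad3−/− minus WT) against the mean of the 2 gene values for 16358 genes (grey) and the Hox genes coloured by cluster. Dotted lines mark 1.5-fold and the dashed line the signal of 8.64, and the Hox genes lie on the dim side between the dotted lines.

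By cluster, the median difference was -0.16 in HoxA (7 of 9 genes below 0), -0.055 in HoxB (5 of 10), -0.12 in HoxC (6 of 8) and -0.0625 in HoxD (4 of 6). By position it was -0.12 for the 10 genes of paralogs 1 to 4, -0.135 for the 10 genes of paralogs 5 to 8 and -0.045 for the 13 genes of paralogs 9 to 13. The order of these medians was not tested, and each spans a range over the processing alternatives that overlaps the others. Measured genes were paired with the next measured gene in the order of RefSeq (GRCm38.p6), which passes over Hoxc11, Hoxd4, Hoxd8 and Hoxd12. Both genes were below 0 in 5 of the 8 HoxA pairs and 4 of the 7 HoxC pairs. The same held for 2 of the 9 HoxB pairs and 1 of the 5 HoxD pairs. With 22 of the 33 Hox genes below 0, such pairs also arise without any link between neighbours, which was not tested.

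**Figure D3:**
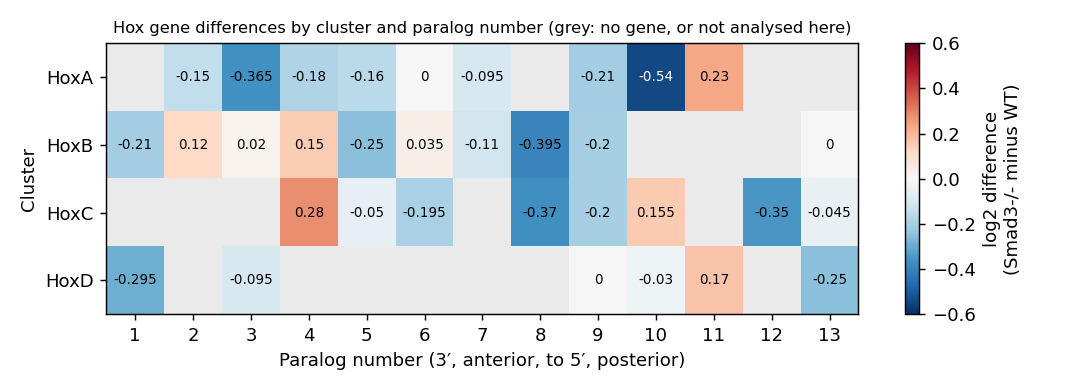
Log2 difference of each Hox gene (Smad3−/− minus WT), with clusters in rows and paralog numbers in columns. Blue cells are below 0 and red cells above it, and the column of paralog 8 holds -0.395 and -0.37 while that of paralog 11 holds 0.23 and 0.17.

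Paralogs of the same number, which arose by duplication of an ancestral cluster, lay on the same side of 0 in part of the groups. Hoxb8, which acts in the spinal cord and in blood and microglial lineages, and Hoxc8, which acts in thoracic vertebrae and brachial motor neurons, were lower at every probe set, 7 of 7 in all. Hoxb1 and Hoxd1 of paralog 1 were lower at 11 of 13 probe sets. Hoxa11 and Hoxd11, which together shape the forearm, were the 2 measured members of paralog 11 and were higher at 11 of 16 probe sets, although their gene values themselves were lower in the Smad3−/− array. In paralog 4, Hoxa4 had -0.18 while Hoxb4 had 0.15 and Hoxc4 0.28. Their gene values went the opposite way, from 7.85 in WT to 8.24 in Smad3−/− ESCs for Hoxa4, 6.48 to 6.09 for Hoxb4 and 6.91 to 5.95 for Hoxc4. These groups were singled out after their values were seen, and each holds few genes.

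In HoxA, Hoxa10, a regulator of the lumbar vertebrae and of the uterus, had the lowest difference of the family. Its gene value was 8.02 in WT and 7.20 in Smad3−/− ESCs, with a median difference of -0.54 over 7 probe sets. Its probe sets did not move together. Signals of 4 of them went from 8.07 to 7.53, from 8.02 to 7.19, from 7.99 to 7.07 and from 6.98 to 6.13. A pair went the other way by 0.55 each, from 8.05 to 8.60 and from 6.65 to 7.20. The brightest probe set read 10.32 and 10.28. The dim probe sets thus gave the gene its value, and the probe set with the clearest signal differed by -0.04. Hoxa3, needed for the thymus and parathyroid, read 7.005 in both arrays by its gene value, but 5 of its 6 probe sets were lower, with a median difference of -0.365. Its dimmest probe sets differed most, by -1.44 (5.27 to 3.83) and -0.75 (3.73 to 2.98). A probe set that carried the symbols of both Hoxa3 and 2700086A05Rik was not counted and went from 5.27 to 4.38. Hoxa11 read 6.96 and 6.79, and 5 of its 7 probe sets were higher, which gave a median difference of 0.23. Hoxa4 read 7.85 and 8.24, but 4 of its 7 probe sets were lower, with a median difference of -0.18. The remaining HoxA genes, Hoxa2 of the hindbrain and the middle ear, Hoxa5 of the lung, Hoxa6, Hoxa7 and Hoxa9, a regulator of blood stem cells, had differences between -0.21 and 0.

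In HoxB, Hoxb8 read 6.76 in WT and 6.365 in Smad3−/− ESCs, with a difference of -0.395. Its brightest probe set went from 11.86 to 11.30, and the other 3 from 6.77 to 6.12, from 6.75 to 6.52 and from 6.27 to 6.21. All 4 were lower, the bright one by -0.56, which is just within 1.5-fold. Hoxb1, which specifies the fourth rhombomere of the hindbrain and is among the first Hox genes to respond to retinoic acid, read 8.10 and 8.02, and its 5 probe sets were lower by between -0.08 and -0.57, with a median of -0.21. Hoxb5 read 7.61 and 7.08 with a difference of -0.25. Hoxb6 and Hoxb3, the members of HoxB with the highest gene values, had differences near 0. Hoxb6 read 8.355 and 8.21 (difference 0.035), and Hoxb3, a hindbrain gene, read 8.24 and 7.74 (difference 0.02). Hoxb13, a gene of the tail and the prostate, read 7.35 and 7.34, with probe set differences between -0.08 and 0.06. Hoxb2, Hoxb4, which expands blood stem cells, Hoxb7 and Hoxb9 had differences between -0.20 and 0.15.

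In HoxC, Hoxc8 read 7.07 in WT and 6.88 in Smad3−/− ESCs. Its 3 probe sets went from 8.83 to 8.46, from 7.07 to 6.88 and from 6.11 to 5.67, a median difference of -0.37. Hoxc12 read 7.78 and 7.43 with a difference of -0.35 over 3 probe sets, 1 of which was higher. Hoxc4, a gene of the neck and upper thorax, had the highest difference of the family, 0.28, although its gene value went from 6.91 in WT to 5.95 in Smad3−/− ESCs. A single probe set that went from 7.08 to 5.95 crossed the middle of its 7 probe sets, 4 of which were higher. Hoxc13, a regulator of hair keratins, had the highest gene value of the cluster, with 8.21 and 8.31, and a difference of -0.045 over 8 probe sets. Hoxc5, Hoxc6, Hoxc9 and Hoxc10 had differences between -0.20 and 0.155.

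In HoxD, Hoxd1, which acts in pain-sensing neurons of the mouse, read 7.25 in WT and 7.195 in Smad3−/− ESCs and had the lowest difference of the cluster, -0.295, with 6 of 8 probe sets lower. Its brightest probe sets went from 11.97 to 11.63 and from 9.62 to 9.08. Hoxd13, which patterns the digits, read 6.995 and 6.91 with a difference of -0.25 over 4 probe sets. Hoxd11 had the highest WT value of all Hox genes, 8.53, and read 8.08 in the Smad3−/− array, although 6 of its 9 probe sets were higher and its difference was 0.17. Hoxd10, a gene of hindlimb motor neurons, read 7.23 and 7.38 (difference -0.03). Hoxd3 and Hoxd9 had differences of -0.095 and 0, and Hoxd9 held the largest single difference of the family, a probe set that went from 4.69 to 3.13. A further 13 probe sets carried the symbols of both Hoxd3 and Hoxd4 and were counted for neither. Their median was 7.19 in WT and 6.93 in Smad3−/− ESCs, with 8 lower and 5 higher and a median difference of -0.27.

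The probe sets of a Hox gene rarely moved one way, and the same held for other genes. In 30 of 33 Hox genes they pointed in both directions. This was so in 13976 of all 15207 genes with 3 or more probe sets and in 6757 of the 7180 dim ones. The count of 30 is thus no result about the family. Hoxb1, Hoxb8 and Hoxc8 were lower at all of their probe sets, which number 5, 4 and 3. This pattern was found in 2.30% of all genes with 3 or more probe sets and in 3.40% of the dim ones. These shares are not matched for probe set number, whose median over all genes is 11, and fewer probe sets agree more easily. No Hox gene was higher at all of its probe sets, against 5.05% of all such genes and 149 of the 7180 dim ones. That absence is no result about the family. Of the 197 probe sets, 121 were lower, 71 higher and 5 equal, where 41.3% of all probe sets and 46.1% of those under 9.07, the median of the higher signal over all probe sets, were lower. Differences past 1.5-fold were found downward at 17 probe sets of 12 genes and upward at 7 of 7 genes, with 5 genes holding both. Over all probe sets 3.65% were past 1.5-fold downward and 5.95% upward, and over those under 9.07 these shares were 6.73% and 9.35%. All 24 of these Hox probe sets lay under 9.07. Probe sets of 1 gene read the same transcript and are not replicates.

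**Figure D4:**
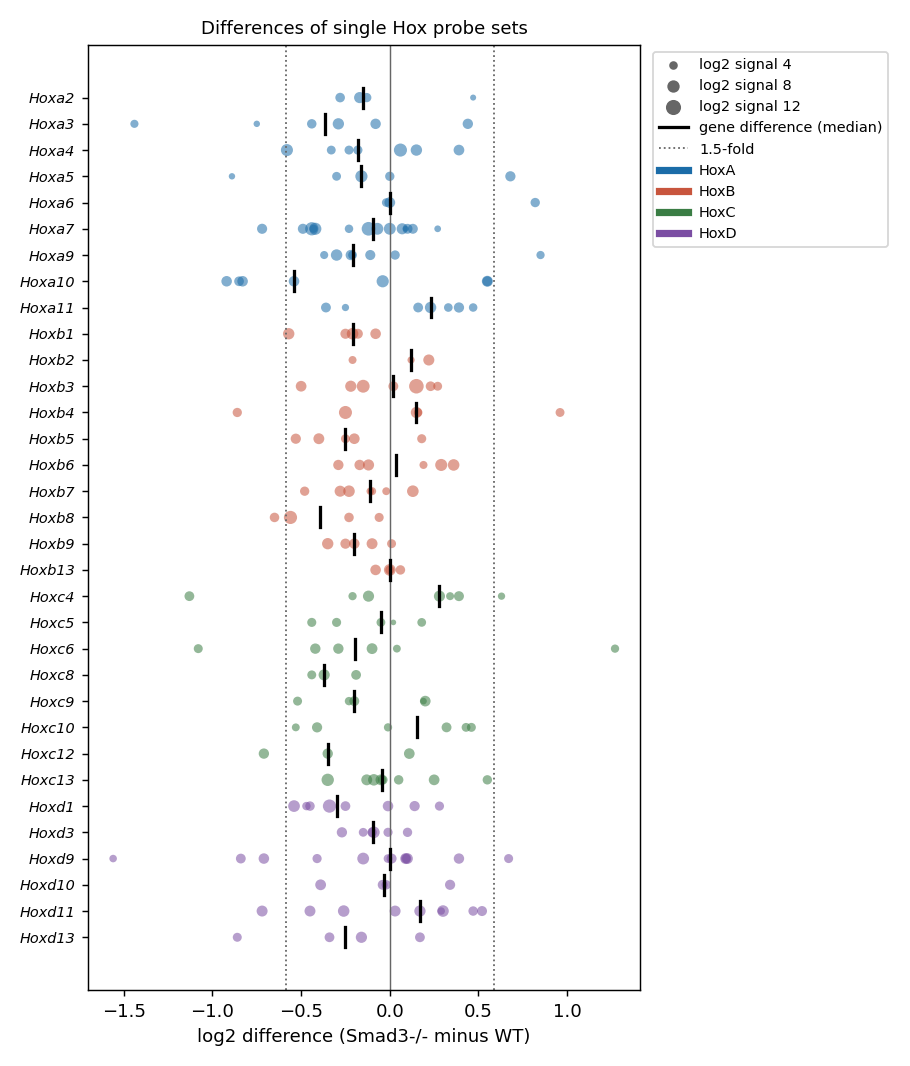
Log2 difference (Smad3−/− minus WT) of each of the 197 Hox probe sets, 1 row per gene, with point size growing with the higher of the 2 signals and a black bar at the gene's median. Differences beyond the dotted lines at 1.5-fold belong to probe sets whose higher signal is under 9.07, and most rows straddle 0.

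Bright probe sets were found inside dim genes. Of the 197, 32 probe sets in 19 genes reached 9.07 in at least 1 array. None of these 32 differed by more than 1.5-fold, and 22 were lower, 8 higher and 2 equal, with a median of -0.15, where 36.4% of all probe sets at or above 9.07 were below 0, 2.54% were past 1.5-fold upward and 0.572% downward, and the median was 0.06. The brightest belonged to Hoxb3 and read 14.09 in WT and 14.24 in Smad3−/− ESCs, while the other 6 probe sets of Hoxb3 read between 5.81 and 11.41 in the WT array. In Hoxa7 the brightest read 12.65 and 12.53, and 5 of its 14 probe sets reached 9.07. In Hoxb4 a single probe set read 11.62 and 11.37, with the other 4 between 5.13 and 8.79 in the WT array. In Hoxa4 the brightest read 11.66 and 11.72, and in Hoxa5 a single one read 10.30 and 10.14. The same probe sets stood out in both arrays. Whether they read Hox transcripts, overlapping transcripts of the clusters or the RNA of other genes was not tested.

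Promoter sequences are shown for Hoxa10, Hoxb8 and Hoxd1, the genes with the lowest difference in HoxA, HoxB and HoxD, and for Hoxb1, lower at every probe set. They are the 250 bases before an annotated start (RefSeq, GRCm38.p6), and of the 33 genes 18 had at least 1 of 20 such windows. Hoxc8, which had the lowest difference in HoxC, had no such window and is not shown. In the first 4 sequences capitals mark CpG dinucleotides, which Polycomb-bound promoters are rich in. In the last, capitals mark TGATNNAT, the core of the joint binding site of Pbx and Hox proteins, by which Hoxb1 activates its own transcription in the hindbrain.
Hoxa10, upstream start, chr6:52240855-52241104, minus strand: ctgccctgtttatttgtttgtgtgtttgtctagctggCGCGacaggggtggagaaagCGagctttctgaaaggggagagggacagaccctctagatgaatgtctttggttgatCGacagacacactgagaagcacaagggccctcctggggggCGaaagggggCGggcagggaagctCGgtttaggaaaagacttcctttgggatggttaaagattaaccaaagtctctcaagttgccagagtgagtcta
Hoxa10, downstream start, chr6:52234940-52235189, minus strand: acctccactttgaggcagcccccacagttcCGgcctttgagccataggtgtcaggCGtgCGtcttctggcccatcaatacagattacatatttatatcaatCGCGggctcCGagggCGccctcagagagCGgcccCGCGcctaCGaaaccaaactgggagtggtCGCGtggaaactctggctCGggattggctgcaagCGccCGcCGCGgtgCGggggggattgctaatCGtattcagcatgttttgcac
Hoxb8, chr11:96281655-96281904, plus strand: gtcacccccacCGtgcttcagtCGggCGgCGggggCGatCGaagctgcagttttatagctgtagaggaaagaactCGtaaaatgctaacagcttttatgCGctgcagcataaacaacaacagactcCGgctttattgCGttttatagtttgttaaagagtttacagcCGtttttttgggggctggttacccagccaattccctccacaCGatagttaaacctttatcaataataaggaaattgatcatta
Hoxd1, chr2:74762730-74762979, plus strand: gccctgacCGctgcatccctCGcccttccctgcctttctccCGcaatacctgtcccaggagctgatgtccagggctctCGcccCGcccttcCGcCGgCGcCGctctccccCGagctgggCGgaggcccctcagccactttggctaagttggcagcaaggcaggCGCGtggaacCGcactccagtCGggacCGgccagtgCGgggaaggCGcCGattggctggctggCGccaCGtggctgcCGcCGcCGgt
Hoxb1, chr11:96365508-96365757, plus strand: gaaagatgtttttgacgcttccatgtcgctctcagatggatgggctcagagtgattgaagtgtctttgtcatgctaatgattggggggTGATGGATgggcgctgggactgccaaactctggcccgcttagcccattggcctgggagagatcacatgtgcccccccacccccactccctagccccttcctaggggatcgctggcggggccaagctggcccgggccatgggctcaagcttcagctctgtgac

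The upstream window of Hoxa10 held 7 CpG and the downstream one 20, Hoxb8 held 12, Hoxd1 24 and Hoxb1 7. Over the 20 Hox windows the count ran from 2 (upstream start of Hoxd11) to 31 (Hoxd13), with a median of 13, against a median of 6 over 32851 windows of all genes. On both strands, TGATNNAT occurred in 4 of the 20 Hox windows (Hoxa2, Hoxb1, Hoxb8 and the downstream start of Hoxd11), or 20.0%, against 7.7% of all windows. The motif CAGAC, a short site read by Smad proteins, occurred in 6 of 20 (30.0%, all windows 42.2%) and GGCGC, a GC-rich motif also read by Smad3, which contains a CpG, in 14 of 20 (70.0%, all windows 32.0%). CAGAC was in the windows of Hoxb8 and of the upstream start of Hoxa10, and not in those of Hoxd1 and Hoxb1. A match is a run of letters and no measured binding site.

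Genes that work with or on the Hox clusters were described for comparison. No member of these lists passed 1.5-fold, against 1.82% of all genes. Of 7 measured Hox cofactors of the TALE homeodomain class, which bind DNA beside Hox proteins, 6 were above the limit of 8.64. Meis2 was higher at all of its 15 probe sets (10.62 in WT, 10.98 in Smad3−/− ESCs, difference 0.45), and Pbx3 had -0.23. Of 25 Polycomb genes 22 were above the limit, 12 were below 0 and 13 above 0, with a median of 0.01. Aebp2, a PRC2 partner, had the largest difference with -0.40 (10.57 and 10.24). Its 25 single probe sets ranged from -3.05 to 0.55. The 10 measured trithorax and H3K27 demethylase genes, which oppose Polycomb, were all above the limit, with a median of 0.0575 and Wdr5 at 0.17. Of 17 retinoic acid genes 7 were above the limit, and the list's median was -0.015. Dhrs3, which turns retinal back to retinol, read 9.01 and 9.455 (difference 0.505), and Crabp1, a retinoic acid binding protein, read 11.68 and 11.03 (difference -0.32).

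The neighbours of the clusters and the kin of the Hox genes were read in the same way. Of 17 measured genes that flank the clusters, 16 were above the limit and 14 had differences above 0, with a median of 0.075, where 5970 of all 8185 genes at or above the limit were above 0 with a median of 0.08. The extremes were 0.26 for Snx11 beside HoxB and -0.22 for Hnrnpa1 beside HoxC, the latter from 1 probe set. Of the 8 ParaHox and Evx genes, Evx1, at the 5′ end of HoxA, was the 1 above the limit (9.20 and 9.12). Their median was -0.04, with Cdx4, an activator of Hox genes, at 0.47 (5.76 and 6.17) and Cdx1 at -0.27 (8.19 and 7.89). Of 65 other homeobox genes, such as the Dlx, Lhx, Nkx and Irx genes, 55 were dim and 49 were below 0, with a median of -0.085 and the lowest value -0.40 (Prrx2 and Nkx2-2). Homeobox genes outside the clusters were thus below 0 in 75.4% and Hox genes in 66.7%. The 880 olfactory receptor genes, best known from the nose, were added as a reference after the values were seen. They were dim except for 5 and had a median difference of -0.02, with 52.3% below 0. Their median value in WT was 4.95, against 7.005 for the Hox genes, so they are not matched by signal. The 6761 genes within the signal range of the Hox genes had a median difference of -0.04, with 57.6% below 0.

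The labelled cell type was borne out by 10 ESC markers, all above the limit, with WT values from 10.71 to 13.63 and Smad3−/− values from 10.65 to 13.71 and no difference past 1.5-fold. Because differentiated cells and feeder fibroblasts express Hox genes, their markers were read beside the Hox values. Of 20 fibroblast markers 1 was above the limit (Col1a1, 8.77 and 8.53), their mean value was 7.13 in WT and 7.18 in Smad3−/− ESCs, 10 were lower and 9 higher, and Pdgfrb was higher by 0.99 (7.255 and 8.06). Mesoderm markers had means of 7.33 and 7.27, with 1 of 12 above the limit (Eomes) and the largest difference at Mixl1 (-0.46). Neural markers had means of 7.765 and 7.80, with 4 of 11 above the limit, and endoderm markers 6.97 and 6.88, with 0 of 10 above it and 9 of 10 below 0. The part of these cells in the Hox values was not tested. Lefty1, a Nodal target, had a difference of -1.05, while Smad3 itself had 0.375 over 16 probe sets, with single probe sets from -2.50 to 1.84. Probe sets outside the deleted part do not check the label, and the sources used here do not state where these probe sets lie, so the Smad3−/− array is here the array labelled as such.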

How the data were processed

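Log2 signals per probe set were deposited by the authors for 2 mouse exon arrays, 1 of WT and 1 of Smad3−/− ESCs. The submitters' processing notes list the mm8 build and Affymetrix Expression Console, and Partek, Genespring and a 1.5-fold threshold appear in the methods. How background was corrected and how signals were summarized and normalized was not given in the sources used here, nor were versions. The log base was taken from the highest value of 14.94, which as log2 is 31433, under the 65536 levels of a 16-bit scanner. The table held 229581 probe sets, of which 209279 had 1 gene symbol, 4446 several and 15856 none here. Of 16380 symbols 14190 were current in RefSeq (GRCm38.p6), 2145 older ones were updated and 45 did not match, which left 16358 genes. The arrays used mm8, so GRCm38.p6 served only for names, gene order and promoters.

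The value and the difference of a gene were medians over its probe sets. In each cluster, the 2 genes with the highest values, the 3 with the largest absolute differences and any gene above the limit or past 1.5-fold were named with their values, and genes of other lists were taken from the 4 members with the largest differences and the brightest member. Further members were named where a probe set or sequence stood out, after their values were seen. None of 15 noncoding genes of the clusters, miRNAs among them, had a probe set under its own symbol. The members and lists were chosen with earlier results of these data known. Alternatives were quantile normalization, a median difference set to 0, removal of a loess trend (fraction 0.3), a pseudocount of 50, the mean or the brightest probe set, bright probe sets only, genes with 3 or more probe sets, a 2-fold threshold and the subtraction of gene medians, which was added after seeing the data. Scripts were tested on simulated data and ran in Python 3.11.15 with pandas 2.3.3, numpy 2.4.6, matplotlib 3.10.9 and statsmodels 0.14.6.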

Additional observations from a re-analysis of the deposited data

How the results depend on the processing

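No paired analysis was possible because WT and Smad3−/− have 1 array each. The Hox median of -0.11 stayed below 0 in all 9 alternatives, from -0.19 to -0.0876. The median of all genes ran from -0.03 to 0.05, and 22 to 27 of 33 Hox genes were below 0 where all were kept. Keeping genes with 3 or more probe sets left the Hox median unchanged by construction, because all 33 have that many. Setting the median difference to 0 only took the same 0.035 from every gene, so its outcome was also fixed in advance. Cluster medians ranged from -0.21 to 0 in HoxA, -0.30 to -0.0294 in HoxB, -0.27 to -0.0714 in HoxC and -0.155 to -0.0477 in HoxD, and those by position from -0.17 to -0.0576 for paralogs 1 to 4, -0.20 to -0.116 for 5 to 8 and -0.17 to -0.0362 for 9 to 13, so that their sizes depend on the setting. When gene medians were subtracted, a setting added after seeing the data, HoxA was at 0, HoxB at -0.30 and HoxC at -0.27. In that setting 1 Hox gene passed 1.5-fold higher (Hoxa6 at 0.78) and 3 lower (Hoxc4 at -0.96, Hoxa10 at -0.82 and Hoxc6 at -0.585), and all genes gave 401 higher and 335 lower. After quantile normalization 1 Hox gene, Hoxa10 (-0.59), was lower by more than 1.5-fold, where all genes gave 143 higher and 137 lower. The limit, a median over all genes, was taken anew in each setting. By the mean over probe sets 1 Hox gene (Hoxb3) reached the limit of that setting, and by the brightest probe set 6 did. The count of 6 does not hold for the lower limit of the main setting, since 19 Hox genes had a probe set at or above 9.07. Counts of Hox probe sets past 1.5-fold, 7 higher and 17 lower, became 0 and 4 with the pseudocount, 0 and 0 among bright probe sets and 1 and 4 at 2-fold. Over all genes the counts of 186 higher and 112 lower became 83 and 26 with the pseudocount, 32 and 20 at 2-fold and 324 and 419 by the brightest probe set. Higher genes were 62.4% of those past 1.5-fold, 51.1% after quantile normalization, 54.2% with the trend removed, 53.1% with the median difference set to 0, 76.1% with the pseudocount, 75.9% among genes with 3 or more probe sets and 43.6% by the brightest probe set. The pseudocount shrinks dim differences and the 2-fold and bright settings keep fewer by construction, and for the others the cause was not tested. Single genes were followed through all alternatives for 17 of the 33 Hox genes. Among these, Hoxa10 ranged from -0.82 to -0.04, the latter by its brightest probe set. Hoxa4, Hoxa11, Hoxb3, Hoxb6, Hoxc4, Hoxc12, Hoxc13, Hoxd10 and Hoxd11 changed sign in at least 1 alternative. The list is not complete for the family. By subtraction of gene medians, 11 of all 33 Hox genes had the opposite sign to their main difference, Hoxa9, Hoxb2 and Hoxb4 among them. Gene values rest mostly on dim probe sets, which were 165 of 197.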
